A study of Mus musculus with 6 samples.

Results

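The mitochondrial genome carried 151 clusters of polyadenylated RNA 3′ ends in mouse embryonic stem cells, out of 931826 clusters over all chromosomes. A cluster is a set of listed 3′ end positions on the same strand of chromosome M, the mitochondrial chromosome, joined wherever neighbours lay at most 24 nt apart. All 7703 listed positions of that chromosome were used, 5071 on the plus strand and 2632 on the minus strand, and they formed 75 plus-strand and 76 minus-strand clusters. The choice of these clusters used no comparison between groups. After a filter on low counts, 132 of the 151 entered the fit across all clusters, 68 of them on the plus strand and 64 on the minus strand.

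The study sequenced 3′ ends of poly(A) RNA in V6.5 cells, an embryonic stem cell line of mixed C57BL/6-129 background, in 3 groups of 2 biological replicates. The U1 AMO group received an antisense morpholino oligonucleotide (AMO) against U1, the scrambled AMO group received one of scrambled sequence, and the untreated group received no treatment. U1 is the small nuclear ribonucleoprotein that pairs with 5′ splice sites and also suppresses premature cleavage and polyadenylation of nuclear transcripts. The AMO treatment followed published U1 inhibition conditions, per the labels, and neither dose nor time is given there.

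Mitochondrial RNA is made apart from the nuclear machinery. Both strands of the circular genome are transcribed into long precursors in which tRNAs lie between most of the rRNAs and mRNAs, and cutting at the 5′ and 3′ ends of the tRNAs releases the flanking RNAs. A mitochondrial poly(A) polymerase then adds short tails, which complete the stop codon of several mRNAs, and no nuclear poly(A) signal is needed for this. On the plus strand lie both rRNAs, every protein-coding gene except mt-Nd6, and most of the tRNAs; mt-Nd6 and the remaining tRNAs lie on the minus strand.

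The deposited lists hold only positions that have a hexamer resembling a poly(A) signal 6 to 40 nt upstream, so they cover a selected part of mitochondrial 3′ ends. The hexamers listed for selected mRNA, rRNA and minus-strand ends are shown here because most differ from AATAAA and ATTAAA, the major signals of nuclear transcripts. Each is printed 5′ to 3′ on the strand of the RNA, the position is the strongest of its cluster by mean share of mitochondrial reads over the 6 libraries, and the capitals mark the whole deposited hexamer.
mt-Nd2 end, chrM:4949, plus strand: ACTAAT
mt-Nd4 end, chrM:11544, plus strand: ACTAAT
mt-Cytb end, chrM:15286, plus strand: ACTAAA
mt-Rnr2 end, chrM:2675, plus strand: AATAAA
mt-Rnr1 end, chrM:1024, plus strand: AATAAT
RNA ending before mt-Tp, chrM:15423, minus strand: CATAAA
RNA ending before mt-Te, chrM:14140, minus strand: AAATAA
The hexamer shared by the 2 strongest ends, ACTAAT, accounted for 52.3 ± 3.38% of mitochondrial reads in U1 AMO cells, 48.4 ± 4.94% in scrambled AMO cells and 38.9 ± 10.7% in untreated cells (SD, n = 2 each). On all other chromosomes it accounted for 0.0333% of reads in U1 AMO cells, 0.0195% in scrambled AMO cells and 0.0168% in untreated cells. The nuclear signals AATAAA and ATTAAA together accounted for 13.4 ± 0.537% of mitochondrial reads in U1 AMO cells, 14.8 ± 2.61% in scrambled AMO cells and 13.04 ± 1.71% in untreated cells. Elsewhere in the genome they accounted for 87.8% in U1 AMO cells, 87.5% in scrambled AMO cells and 87.8% in untreated cells. The median distance from hexamer to position was 15 to 18 nt on chromosome M and 21 nt on the other chromosomes in every library. Whether a listed mitochondrial hexamer takes part in forming the end was not tested, since each position was listed with one.

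Positions are given in mm9 coordinates, and gene names come from RefSeq's gene table for GRCm38.p6. To see whether the numbering of the 2 maps could be used together, all 121 shifts from 60 nt in one direction to 60 nt in the other were tried. On the plus strand the unshifted map had the highest share, with 66.3% of reads within 2 nt of a gene boundary against a median of 0.457% over the shifts. On the minus strand the unshifted map gave 61.675% and a shift of 1 nt gave 61.685%, the highest, against a median of 0.326%. Clusters of both strands were placed without a shift, and a position within 5 nt of a gene's limit is called a boundary end.

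Most mitochondrial reads came from few boundary ends. Within 5 nt of a gene boundary lay 74.9% and 67.9% of plus-strand reads in U1 AMO cells, 71.9% and 70.9% in scrambled AMO cells, and 68.7% and 58.6% in untreated cells. Only 3.61% of the listed plus-strand positions lay there. On the minus strand the boundary shares were 50.1% and 55.4% in U1 AMO cells, 45.6% and 54.6% in scrambled AMO cells, and 65.6% and 73.1% in untreated cells, with 3.04% of listed positions. The strongest position was a boundary in 13 of 75 plus-strand clusters and in 6 of 76 minus-strand clusters, so in most clusters it lay away from a boundary. The 3 most abundant clusters held 66.9% and 56.6% of mitochondrial reads in U1 AMO cells, 56.6% and 57.3% in scrambled AMO cells, and 55.7% and 43.4% in untreated cells. The strands differed in abundance: 12 plus-strand clusters and 1 minus-strand cluster averaged at least 100 CPM (the usual scaling of a count to the listed reads of its library), while 7 plus-strand and 50 minus-strand clusters averaged under 1 CPM.

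**Figure D1:**
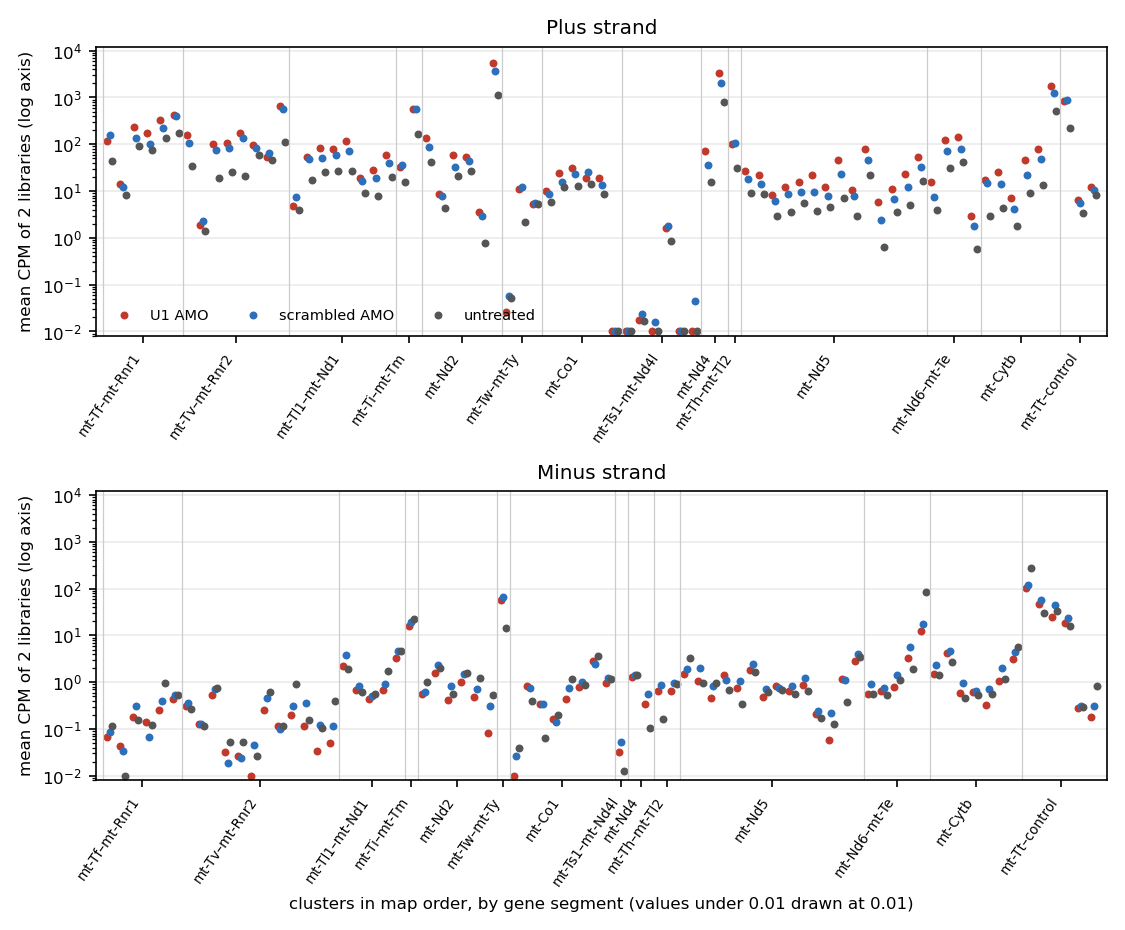
Mean CPM of the 2 libraries of each group (log axis) for every mitochondrial cluster, in map order and grouped by gene segment, with the plus strand above and the minus strand below. The highest points are the plus-strand ends of mt-Nd2, mt-Nd4 and mt-Cytb, and the stretch from mt-Ts1 to mt-Nd4l is almost empty on both strands.

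The mRNA ends came first in abundance. The end of mt-Nd2, which encodes a subunit of respiratory complex I, lies against mt-Tw, the tryptophan tRNA, and its cluster (chrM:4944-4978) was the most abundant of all. It had 7305 and 3691 CPM in U1 AMO cells, 4454 and 3041 CPM in scrambled AMO cells, and 1606 and 708.8 CPM in untreated cells. U1 AMO and scrambled AMO libraries overlapped, and both untreated libraries were lower than all 4 AMO libraries. The end of mt-Nd4, another complex I subunit, lies against the histidine tRNA mt-Th (chrM:11362-11554). It had 4423 and 2321 CPM in U1 AMO cells, 2692 and 1332 CPM in scrambled AMO cells, and 1227 and 393.9 CPM in untreated cells. The U1 AMO libraries again overlapped the scrambled AMO ones, while each was higher than the scrambled AMO library of its own run. The end of mt-Cytb, which encodes cytochrome b of complex III, lies against the threonine tRNA mt-Tt (chrM:15272-15369). It had 2662 and 906.8 CPM in U1 AMO cells, 1943 and 516.9 CPM in scrambled AMO cells, and 601.9 and 423.6 CPM in untreated cells. At mt-Nd4 all 4 AMO libraries were above both untreated libraries, while at mt-Cytb scrambled AMO replicate 2 lay between the untreated libraries.

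The precision of these ends differed. At mt-Nd4 a single nucleotide held 91.6% and 91.9% of the cluster in U1 AMO cells, 91.5% and 93.8% in scrambled AMO cells, and 92.8% and 90.0% in untreated cells. The nucleotides directly downstream of it were listed in no library, which limits what this share says of precision. At mt-Nd2 the strongest nucleotide held 64.3% and 75.0% in U1 AMO cells, 67.0% and 77.9% in scrambled AMO cells, and 70.1% and 79.4% in untreated cells, and replicate 2 was the higher in each group. At mt-Cytb the end was spread over several neighbouring nucleotides, and chrM:15286, the strongest over all libraries, held 21.4% and 35.2% in U1 AMO cells, 23.1% and 45.3% in scrambled AMO cells, and 39.0% and 57.6% in untreated cells. In replicate 1 of both AMO groups a neighbour held more, with 26.1% at chrM:15287 in U1 AMO cells and 26.2% at chrM:15288 in scrambled AMO cells. A second mt-Cytb end lay 12 nt upstream, at chrM:15274, with 10.6% and 19.4% of the cluster in U1 AMO cells, 7.82% and 14.6% in scrambled AMO cells, and 2.15% and 4.02% in untreated cells. All 4 AMO libraries were above both untreated libraries there.

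**Figure D2:**
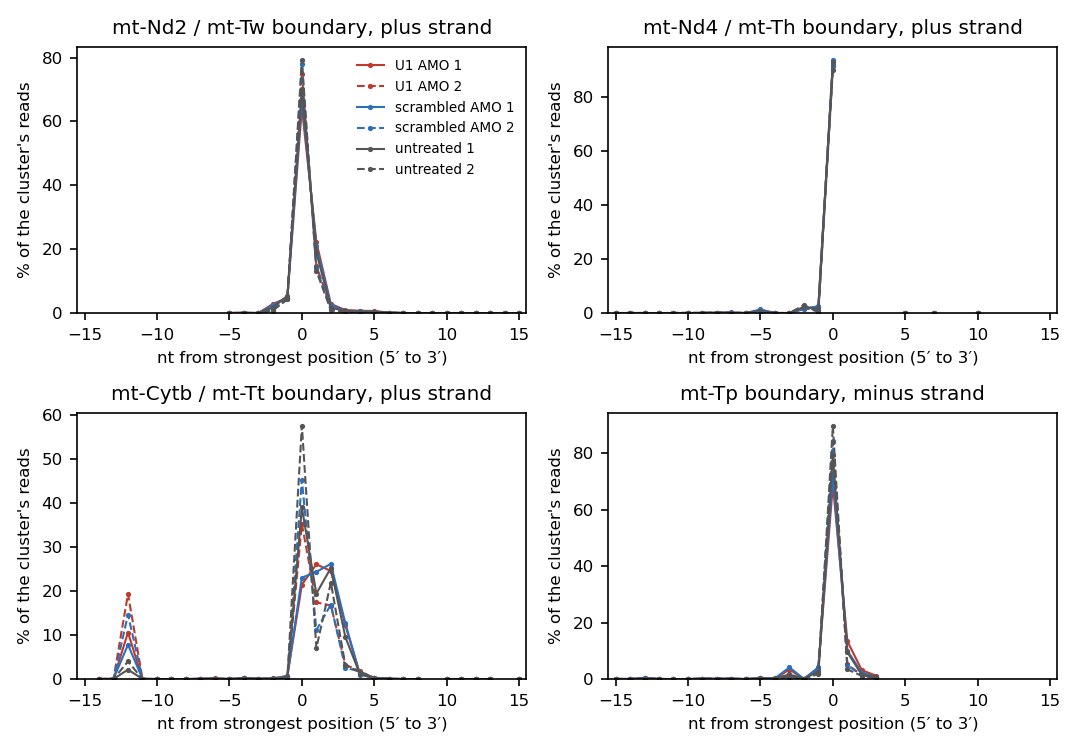
Percent of each cluster's reads by distance in nt from its strongest position, along the RNA, for the ends of mt-Nd2, mt-Nd4 and mt-Cytb on the plus strand and the end beside mt-Tp on the minus strand, 1 line per library with replicate 1 solid and replicate 2 dashed. Reads concentrate on 1 nucleotide at mt-Nd4 and spread over several at mt-Cytb, and gaps in a line are positions that no library listed.

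Of the 13 protein-coding genes, 8 had a listed position within 5 nt of their 3′ end, as had 2 of 2 rRNAs and 9 of 22 tRNAs. None was listed at the ends of mt-Nd1, mt-Co1, mt-Atp8, mt-Co3 and mt-Nd4l, and mt-Co2, mt-Atp6, mt-Nd3 and mt-Nd6 had at most 2 reads in any library. The mt-Nd5 end had 2 listed positions with 3 to 23 reads per library. From chrM:6361 to chrM:9459 on the plus strand, 3099 nt that take in the 3′ ends of the cytochrome oxidase and ATP synthase genes, only 9 positions were listed. That is 2.90 positions per kb, against 385.6 per kb elsewhere on the strand, and the stretch held 0 and 4 reads in U1 AMO cells, 0 and 5 in scrambled AMO cells, and 0 and 3 in untreated cells. The minus strand had a similar stretch of 4874 nt from chrM:6393 to chrM:11266, with 5 listed positions. The mitochondrial 3′ ends compared below are therefore mostly those listed outside these stretches. Coverage there was not complete either, since the mt-Nd1 end had 0 listed positions and the mt-Nd6 end at most 1 read per library. Nuclear copies of mitochondrial DNA exist in the mouse genome, and the sources used here do not say how reads with several matches were treated, and its part in the empty stretch was not tested.

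Ends of the rRNAs were also abundant. The end of mt-Rnr2, the large ribosomal RNA, lies against the leucine tRNA mt-Tl1 (chrM:2587-2680). It had 797.2 and 541.4 CPM in U1 AMO cells, 784.4 and 339.8 CPM in scrambled AMO cells, and 128.5 and 90.9 CPM in untreated cells. The U1 AMO and scrambled AMO libraries overlapped widely, and both groups lay above the untreated libraries. The end of mt-Rnr1, the small ribosomal RNA, and the following end of the valine tRNA mt-Tv fell in a single cluster (chrM:1024-1215). It had 421.7 and 407.2 CPM in U1 AMO cells, 459.0 and 343.6 CPM in scrambled AMO cells, and 210.8 and 131.8 CPM in untreated cells, and here too the untreated libraries were the lowest. Inside the rRNAs there were weaker ends. A cluster inside mt-Rnr2 at chrM:1900-2073 had 214.5 and 132.6 CPM in U1 AMO cells, 180.0 and 87.1 CPM in scrambled AMO cells, and 27.6 and 13.4 CPM in untreated cells.

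Other abundant plus-strand ends lay beside tRNAs. The cluster at chrM:3806-3952 had its strongest position between mt-Tq, a minus-strand tRNA for glutamine, and mt-Tm, the methionine tRNA. The end of mt-Tm fell in the same cluster, with 4.24% to 14.9% of its reads at chrM:3915. This cluster had 598.4 and 520.0 CPM in U1 AMO cells, 731.5 and 419.7 CPM in scrambled AMO cells, and 188.4 and 151.2 CPM in untreated cells. The cluster reaching from mt-Tp, a minus-strand proline tRNA, into the control region (chrM:15411-15701), the non-coding part that holds the promoters, had 1138 and 517.8 CPM in U1 AMO cells. It had 1367 and 426.5 CPM in scrambled AMO cells, and 253.9 and 191.0 CPM in untreated cells. At both, the scrambled AMO libraries bracketed the U1 AMO libraries, and the untreated libraries were the lowest. A plus-strand cluster opposite mt-Nd6 (chrM:13907-14013) had 184.5 and 107.3 CPM in U1 AMO cells, 104.3 and 54.2 CPM in scrambled AMO cells, and 62.9 and 20.5 CPM in untreated cells.

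**Figure D3:**
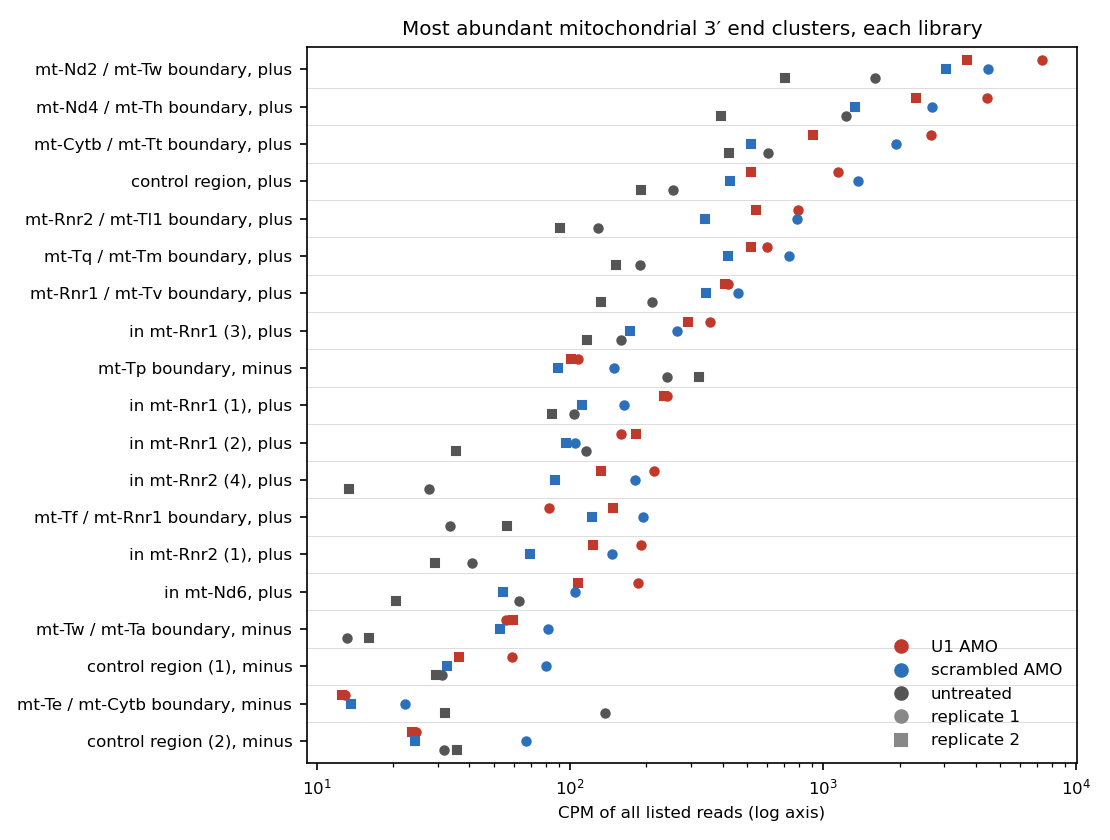
CPM in each library (log axis) of the 15 most abundant mitochondrial clusters together with the 5 most abundant on the minus strand, 1 row per cluster, with colour for the group and symbol for the replicate. In the plus-strand rows untreated libraries mostly lie to the left, while at mt-Tp and mt-Te on the minus strand they lie to the right.

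The minus-strand ends had no common direction. The most abundant lay immediately upstream of mt-Tp (chrM:15420-15477), on RNA that starts in the control region. It had 107.0 and 101.1 CPM in U1 AMO cells, 149.1 and 89.3 CPM in scrambled AMO cells, and 240.9 and 322.1 CPM in untreated cells, so both untreated libraries were the highest. The end immediately upstream of mt-Te, the glutamate tRNA (chrM:14137-14195), had 12.9 and 12.5 CPM in U1 AMO cells, 22.3 and 13.6 CPM in scrambled AMO cells, and 136.8 and 32.0 CPM in untreated cells. The groups did not overlap, but the 2 untreated libraries were far apart. The end of the alanine tRNA mt-Ta (chrM:5011-5038) went the other way, with 55.9 and 59.3 CPM in U1 AMO cells, 81.5 and 52.9 CPM in scrambled AMO cells, and 13.15 and 16.04 CPM in untreated cells.

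Facts of the libraries bear on all comparisons. The libraries held 15752080 to 62257923 listed reads, of which 212661 to 707930 were mitochondrial. Read names show that replicate 1 of U1 AMO and of scrambled AMO shared a sequencing run and lane, that replicate 2 of both shared another run, and that each untreated library had a run of its own. U1 AMO and scrambled AMO can therefore be compared within a run, whereas a difference of either from untreated cells cannot be told apart from a difference between runs. A share of all reads cannot separate more mitochondrial RNA from less nuclear poly(A) RNA.

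U1 AMO cells were compared with scrambled AMO cells to see the effect of blocking U1. The mitochondrial share of all reads was 2.15% and 1.22% in U1 AMO cells and 1.60% and 0.853% in scrambled AMO cells, with means of 1.69 ± 0.657% in U1 AMO cells and 1.23 ± 0.531% in scrambled AMO cells (SD, n = 2 each). The ratio of means was 1.37, and within runs it was 1.34 and 1.43, but the groups overlapped (two-sided exact permutation p = 0.667, adjusted p = 0.80 over 12 comparisons, where 2 libraries against 2 cannot go below 0.33). Within runs the differences were 0.547 and 0.369 percentage points. Without U1 AMO replicate 1 the difference was -0.00657 points, which sets U1 AMO replicate 2 against scrambled AMO libraries of both runs. Among positions with a deposited score of 5 or less, the mitochondrial share was 0.241% and 0.185% in U1 AMO cells and 0.235% and 0.125% in scrambled AMO cells, a mean difference of 0.033 points. Such positions held 8.32% to 11.8% of mitochondrial reads and 73.2% to 76.8% of reads elsewhere. Among positions with AATAAA or ATTAAA the share was 0.324% and 0.195% in U1 AMO cells and 0.309% and 0.128% in scrambled AMO cells, a mean difference of 0.041 points. Under the quasi-likelihood test of edgeR over all 6 libraries, 0 of 132 mitochondrial clusters were called at an adjusted p under 0.05, where 0.666% of all 80049 clusters were called higher and 0% lower. At an unadjusted p under 0.05 there were 3, and DESeq2 called 0, with 4 at an unadjusted p under 0.05, where it called 3.86% of all clusters higher. The unadjusted counts were not made over all clusters, so they have no share to be read against.

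Within runs the plus strand moved in a common direction. Of 68 plus-strand clusters, 51 were higher in U1 AMO cells than in scrambled AMO cells in both runs, against 34.4% of all clusters, and 4 were lower in both. Of 64 minus-strand clusters, 3 were higher in both runs and 22 lower, where 30.3% of all clusters were lower in both. Clusters of a strand share precursor RNA and libraries, so they are not independent of each other. When the run was added as a block to a fit of the 4 AMO libraries, 37 of 129 clusters were called, 36 higher, all on the plus strand, and 1 lower. In that fit 13.4% of all clusters were called higher and 2.29% lower. The median log2 fold change was 0.51 on the plus strand and -0.31 on the minus strand, and 0.01 over all clusters. The runs differed in direction on the minus strand. Summed by gene segment, minus-strand CPM was lower in U1 AMO cells throughout the map in the run of replicate 1. In the run of replicate 2 it was higher, in places barely, except from mt-Tf to mt-Rnr1 and from mt-Ts1 to mt-Nd4l. From mt-Tt to the control region, U1 AMO cells had 215.1 and 174.2 CPM in these runs, and scrambled AMO cells 334.0 and 157.8 CPM.

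By gene, the higher calls of the run-blocked fit took in 11 of 14 clusters in mt-Nd5 (complex I), 2 of 2 in mt-Nd4, 5 of 6 in mt-Cytb, and 3 of 4 opposite mt-Nd6. They also took in 5 of 8 clusters from mt-Tl1 to mt-Nd1, 3 of 6 in mt-Nd2, 3 of 6 from mt-Tf to mt-Rnr1, 2 of 5 in mt-Co1 and 2 of 8 from mt-Tv to mt-Rnr2. None was called of 3 from mt-Tt to the control region, 2 from mt-Ti to mt-Tm, 2 from mt-Tw to mt-Ty, 1 from mt-Ts1 to mt-Nd4l and 1 from mt-Th to mt-Tl2. The log2 fold changes (run-blocked edgeR) were 0.74 ± 0.14 (SE) at the mt-Nd4 end, with an adjusted p of 0.000129, 0.61 ± 0.14 at the mt-Cytb end, with 0.00172, and 0.47 ± 0.14 at the mt-Nd2 end, with 0.0183. The cluster opposite mt-Nd6 at chrM:13907-14013 had 0.88 ± 0.15 with an adjusted p of 1.55e-05, and a cluster inside mt-Cytb at chrM:14764-14830 had 1.02 ± 0.16 with 4.86e-06. The boundary ends of mt-Rnr2 (0.33 ± 0.15, adjusted p = 0.178) and mt-Rnr1 (0.04 ± 0.14, adjusted p = 0.922) were not called. The cluster called lower was the control-region one at chrM:15991-16036 on the minus strand, at -0.74 ± 0.21 with an adjusted p of 0.0084, and its level was 24.6 and 23.8 CPM in U1 AMO cells and 67.0 and 24.4 CPM in scrambled AMO cells.

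Scaling to mitochondrial reads lowers the run-blocked values on both strands by construction, since the mitochondrial share was higher in U1 AMO cells within both runs. Its median log2 fold change was 0.06 on the plus strand and -0.77 on the minus strand. Each run-blocked call was made again with the mitochondrial total of each library as the scale of the mitochondrial clusters, a setting chosen after the data were seen. It called 32 clusters, 8 higher and 8 lower on the plus strand and 16 lower on the minus strand, with 13.3% of all clusters called higher and 2.34% lower. The shift of scale bears on these counts, so the added lower calls are relative to the mitochondrial total and not a separate result. The 8 higher ones lay in mt-Nd5 (4), opposite mt-Nd6 (2), in mt-Nd4 (1) and in mt-Cytb (1). Neither the mt-Nd2 end (0.03 ± 0.15, adjusted p = 0.953) nor the mt-Nd4 end (0.29 ± 0.14, adjusted p = 0.193) was called on this scale. The minus-strand share of mitochondrial reads was 1.65% and 2.58% in U1 AMO cells and 3.52% and 3.34% in scrambled AMO cells. The groups did not overlap, and the ratio was 0.469 in the run of replicate 1 and 0.771 in the run of replicate 2 (exact permutation p = 0.33, adjusted p = 0.50). Because the mt-Nd2, mt-Nd4 and mt-Cytb ends make up most of the total, any cluster's share moves against theirs.

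**Figure D4:**
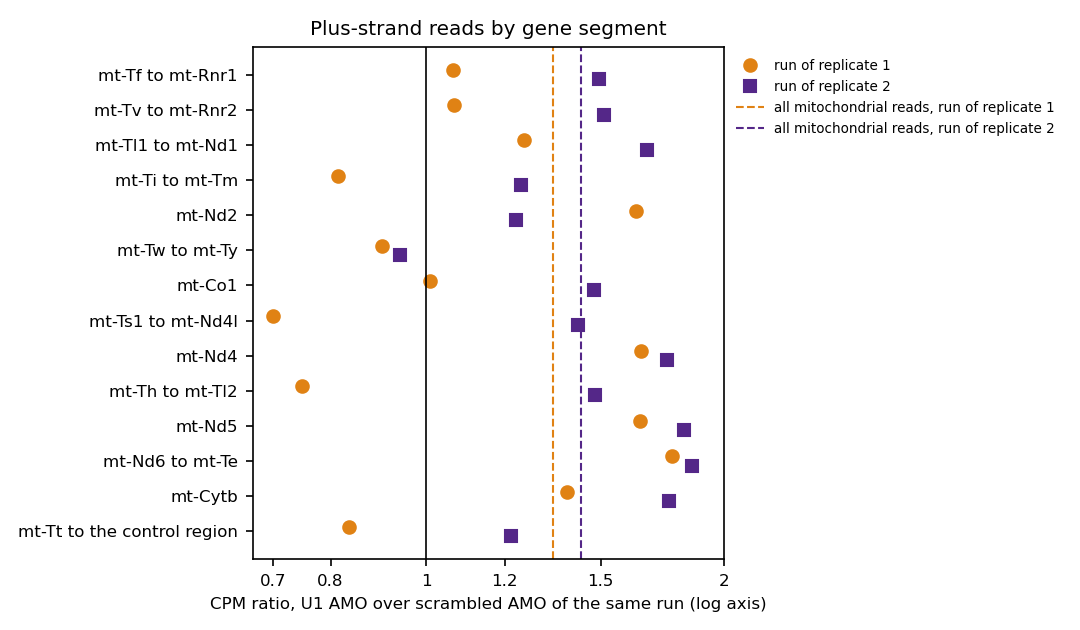
Ratio of CPM in the U1 AMO library to CPM in the scrambled AMO library of the same run (log axis) for plus-strand reads summed over each gene segment, with the dashed lines giving the ratio for all mitochondrial reads (1.34 and 1.43). From mt-Nd4 and mt-Nd5 to mt-Cytb both runs lie above 1, apart from mt-Th to mt-Tl2, and the segment from mt-Tt to the control region lies on both sides of 1.

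Summed over segments, the U1 AMO to scrambled AMO ratio in the runs of replicates 1 and 2 was 1.65 and 1.75 for mt-Nd4, 1.64 and 1.82 for mt-Nd5, 1.77 and 1.85 for the stretch opposite mt-Nd6 and mt-Te, and 1.39 and 1.76 for mt-Cytb. It was 1.06 and 1.49 from mt-Tf to mt-Rnr1 and 1.07 and 1.51 from mt-Tv to mt-Rnr2. It lay on both sides of 1 from mt-Ti to mt-Tm (0.813 and 1.24), from mt-Ts1 to mt-Nd4l (0.70 and 1.42), from mt-Th to mt-Tl2 (0.748 and 1.48) and from mt-Tt to the control region (0.836 and 1.22). It was below 1 in both runs from mt-Tw to mt-Ty, with 0.902 and 0.941. The mt-Nd2 segment, with 1.63 and 1.23, had its higher ratio in the run of replicate 1, unlike the other segments named here.

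Scrambled AMO cells were compared with untreated cells to see what the oligonucleotide treatment does without targeting U1. The mitochondrial share of all reads was 1.60% and 0.853% in scrambled AMO cells and 0.617% and 0.352% in untreated cells, with means of 1.23 ± 0.531% in scrambled AMO cells and 0.484 ± 0.187% in untreated cells. The ratio of means was 2.54 and the groups did not overlap (exact permutation p = 0.33, adjusted p = 0.50). By edgeR 0 of 132 clusters were called, as were 0% of all clusters in either direction. Of the 132, 31 had an unadjusted p under 0.05 by edgeR, a count not made over all clusters. DESeq2 called 17, of which 15 were higher and 2 lower, where it called 1.71% of all clusters higher and 1.02% lower. Both scrambled AMO libraries exceeded both untreated libraries at 53 of 68 plus-strand clusters, against 26.5% of all clusters, and at 13 of 64 minus-strand clusters. They were lower at 0 plus-strand and 7 minus-strand clusters, against 16.8% of all clusters. The minus-strand share of mitochondrial reads was 3.52% and 3.34% in scrambled AMO cells and 9.50% and 14.5% in untreated cells, without overlap (exact permutation p = 0.33, adjusted p = 0.50). This share falls as plus-strand reads rise. The median log2 fold change (edgeR, scaled to all reads) was 1.03 on the plus strand and 0.19 on the minus strand. Minus-strand CPM from mt-Tt to the control region overlapped, with 334.0 and 157.8 in scrambled AMO cells and 327.6 and 397.8 in untreated cells.

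**Figure D5:**
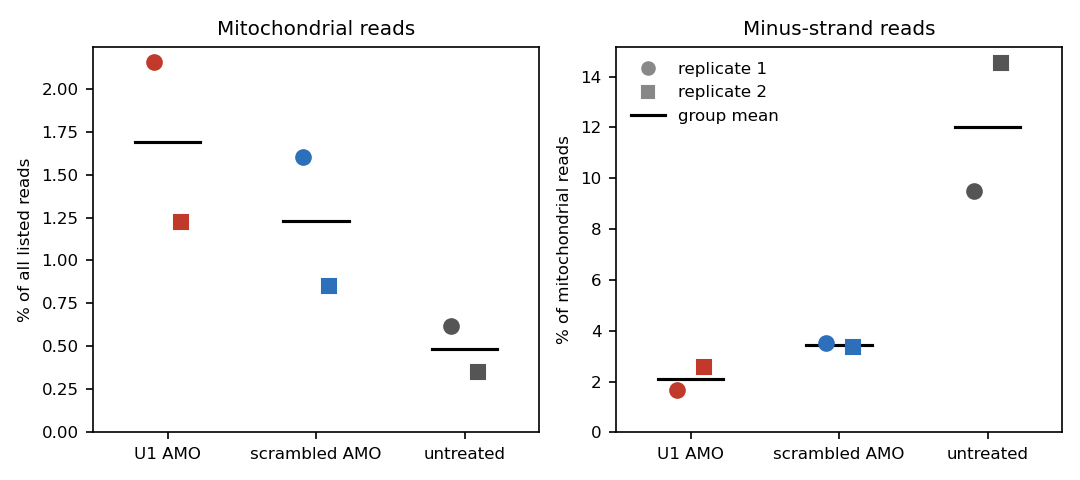
Mitochondrial reads as a percent of all listed reads (left) and minus-strand reads as a percent of mitochondrial reads (right) in each library, with the group mean as a bar. Untreated libraries have the lowest mitochondrial shares (0.617% and 0.352%) and the highest minus-strand shares (9.50% and 14.5%). The minus-strand share also falls as plus-strand reads rise, so it does not give the level of minus-strand reads.

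U1 AMO cells and untreated cells differed in the same direction. This comparison shares its untreated libraries with the preceding one and its U1 AMO libraries with the comparison within runs. The mean mitochondrial share was 1.69 ± 0.657% in U1 AMO cells and 0.484 ± 0.187% in untreated cells, a ratio of 3.48 (exact permutation p = 0.33, adjusted p = 0.50). EdgeR called 11 of 132 clusters higher and 0 lower, where 4.39% of all clusters were called higher and 0.505% lower. Of the 11, 10 were on the plus strand, 5 of them from mt-Tv to mt-Rnr2, 4 in mt-Cytb and 1 in mt-Nd5. The mt-Rnr2 end had a log2 fold change of 2.53 ± 0.47 (adjusted p = 0.0375, edgeR) and the cluster inside mt-Rnr2 at chrM:1900-2073 had 2.99 ± 0.53 (adjusted p = 0.0347). The largest change among the calls was 3.13 ± 0.46 at chrM:13203-13219 in mt-Nd5 (adjusted p = 0.023), a weak end with 7.17 and 4.71 CPM in U1 AMO cells and 0.545 and 0.744 CPM in untreated cells. The minus-strand call was the mt-Ta end, at 1.94 ± 0.32 (adjusted p = 0.0296). The abundant mRNA ends were not called, with 2.14 ± 0.55 at mt-Nd2 (adjusted p = 0.0707), 1.94 ± 0.66 at mt-Nd4 (adjusted p = 0.127) and 1.69 ± 0.70 at mt-Cytb (adjusted p = 0.198). The number of calls was 1 without U1 AMO replicate 2, where 1015 of all 86603 clusters were called, and 36 without untreated replicate 1, where 8760 of 111369 were. It was 3 without untreated replicate 2, where 1850 of 85957 were called, and 0 when replicate numbers were blocked across all 6 libraries, where 0 of 80049 were. DESeq2 called 46 higher and 2 lower, where it called 9.99% of all clusters higher and 2.59% lower.

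In CPM, both U1 AMO libraries exceeded both untreated libraries at 64 of 68 plus-strand clusters, against 33.9% of all clusters, and at 9 of 64 minus-strand clusters. They were lower at 0 plus-strand and 13 minus-strand clusters, against 19.6% of all clusters. The median log2 fold change was 1.60 on the plus strand, -0.30 on the minus strand and 0.23 over all clusters. Scaled to mitochondrial reads, 7 clusters were called, 1 higher and 6 lower, where 4.37% of all clusters were called higher and 0.513% lower. Here too the scale lowers mitochondrial values by construction, since the mitochondrial share was higher in U1 AMO cells. The 6 were all on the minus strand, and their log2 fold changes ran from -4.26 to -2.30. On this scale the end upstream of mt-Te had -4.26 ± 0.55 (adjusted p = 0.0187, edgeR) and the end upstream of mt-Tp had -3.30 ± 0.51 (adjusted p = 0.0254). Scaled to all reads, the same ends had -2.82 ± 0.70 (adjusted p = 0.0656) and -1.48 ± 0.33 (adjusted p = 0.0533). The plus-strand cluster called higher on both scales was the one inside mt-Rnr2 at chrM:1900-2073, at 1.33 ± 0.28 (adjusted p = 0.048) when scaled to mitochondrial reads.

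The variety of ends was compared at equal depth, thinning each library to 212661 mitochondrial reads. The expected number of distinct positions was 4677 and 4954 in U1 AMO cells, 5243 and 4994 in scrambled AMO cells, and 5141 and 3070 in untreated cells. U1 AMO and scrambled AMO libraries did not overlap, by a mean difference of -303 positions (exact permutation p = 0.33, adjusted p = 0.50). Within runs the differences were -567 and -40.3 positions, and leaving out each of these libraries in turn gave -442 to -165. Untreated replicate 2 stood below all others, and without it the difference of U1 AMO from untreated cells was -326 in place of 709. That library also had the fewest distinct positions on the other chromosomes, 497402 from 60261221 reads. The next lowest there was U1 AMO replicate 1, with 678433 from 15413148 reads. Its low variety was thus not particular to mitochondrial ends. The share of mitochondrial reads in the mt-Nd2 cluster was 34.0% and 30.2% in U1 AMO cells, 27.8% and 35.6% in scrambled AMO cells, and 26.1% and 20.2% in untreated cells. U1 AMO and scrambled AMO cells overlapped in it (mean difference 0.37 percentage points, exact permutation p = 1.0), with ratios of 1.22 and 0.847 in the 2 runs.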

How the data were processed

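The 3′ ends of poly(A)-selected RNA were sequenced after RNase T1 fragmentation, reverse transcription, circularisation of the cDNA and PCR, per the labels' protocols. Trimming and alignment used cutadapt and Bowtie on build mm9, per the submitters' processing notes. No version, filter or treatment of reads with several matches is stated in the sources used here. The deposited files list, per library, stranded positions with raw read counts that are not normalized, a hexamer, the distance from hexamer to position in nt, and a deposited score from 0 to 10 whose meaning is not given. No molecular identifiers are described, so reads are not independent molecules.

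Positions of all 6 libraries were joined at a distance of at most 24 nt, and counts were summed. CPM was computed here from the deposited counts and each library's total. The main test was edgeR 4.0.16 (R 4.3.3), quasi-likelihood, TMM and filterByExpr, with all 3 groups in 1 fit and Benjamini-Hochberg adjustment over 80049 clusters; single values had exact two-sided permutation tests. DESeq2 1.42.0 was an alternative, tables were handled in pandas 2.3.3 and numpy 2.4.6 under Python 3.11.15, and permutation tests used scipy 1.17.1. Only the edgeR fit without a block, for U1 AMO against scrambled AMO, was tried on simulated data. DESeq2, the permutation tests and the run-blocked fit were not. P-values measure the spread between these libraries, which edgeR shares over clusters. In the run-blocked fit of 4 libraries little spread is left per cluster, so its p-values rest mostly on what 68821 clusters share. At the mt-Nd4 end its SE for U1 AMO against scrambled AMO was 0.14, against 0.64 in the main fit. Run and lane were read from the deposited read names, which is where the pairing of replicate numbers between U1 AMO and scrambled AMO comes from. Named clusters are the 15 most abundant, the 5 most abundant on the minus strand, and up to 10 called clusters per comparison with the largest change; a further clause, on the end cluster of each gene where an annotation can be used, was not applied. The counts by gene were chosen after their values were seen. The members and lists were chosen with earlier results of these data known. No mitochondrial annotation of mm9 was used here.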

Additional observations from a re-analysis of the deposited data

How the results depend on the processing

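U1 AMO against untreated cells gave 11 called clusters (3916 of all 80049). The count was 14 under RLE size factors (4180 of 80049) and 15 with library size alone (4137 of 80049). With a score of 5 or less it was 16, of which 15 were higher and 1 lower (3791 of 52398). The count was 0 with the replicate block in all 6 libraries (0 of all 80049 clusters), 1 with only the 4 libraries compared (1393 of 70600), 7 with mitochondrial reads as the scale (3912 of 80049), 18 and 7 with positions joined at most 10 or 50 nt apart (3877 of 80898 and 3966 of 77413), 19 without the filter (7175 of 931826), and 48 by DESeq2 (10077 of 80049). Leaving out each replicate in turn gave 1 to 36. U1 AMO against scrambled AMO gave 0 calls, also with the replicate block in all 6 libraries (0 of 80049). It gave 37 with the replicate block (run) in the 4 AMO libraries (10769 of 68821), 32 when that block was joined with mitochondrial reads as the scale (10783 of 68821) and 39 with library size alone (10586 of 68821), the last 2 added after seeing the data. Scrambled AMO against untreated gave 0, and 17 by DESeq2 (2181 of 80049) and 5 without the filter (1279 of 931826). The causes were not tested. Leaving out a replicate gave 0 in both of these comparisons. For the difference in mitochondrial share, leaving out a replicate gave -0.00657 to 0.923 points for U1 AMO against scrambled AMO, 0.369 to 1.12 for scrambled AMO against untreated and 0.738 to 1.67 for U1 AMO against untreated. For the mt-Nd2 cluster's share U1 AMO against scrambled AMO gave -3.57 to 4.32 points, with -1.50 without U1 AMO replicate 1 and -3.57 without scrambled AMO replicate 1. For distinct positions, leaving out untreated replicate 2 gave -22.9 (scrambled AMO) and -326 (U1 AMO), within ranges of -22.9 to 2049 and -326 to 1745. The minus-strand share kept its direction in every alternative run. Of 130 checks on 10 of the 11 clusters called for U1 AMO against untreated cells, 82 stayed called, 48 did not, and none reversed. The mt-Ta end was not checked, nor were the settings that change the clusters (10 nt, 50 nt and score). All 10 lost the call with the replicate block in 6 libraries. With mitochondrial reads as the scale 9 lost it, as did 9 with only the 4 libraries compared. The planned share within 25 nt of gene ends, with windows of 10 and 50 nt, was not run, although shares within 5 nt of boundaries are given as a description. The mt-Nd2 cluster's share, the substitute set for when no annotation of the files' build is given, took its place; that share without its own cluster was not run either. Depth limits clusters under 1 CPM, which were 57 of 151.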
